A study of Homo sapiens with 5 samples.

Results

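NIPA1, NIPA2, CYFIP1, TUBGCP5 and MTMR10 are 5 genes of proximal 15q, the part of the long arm of human chromosome 15 nearest the centromere. They were followed here on bead arrays of K562, an established human leukaemia line, of which they are 5 of 11041 genes measured. All probes of these genes that were detected on at least 2 arrays (detection p-value under 0.05) were taken, which gave 8 of 19105 probes, and each of the 8 was detected on all 5 arrays. The genes were singled out with the comparison of knockdown and control already known, so their differences are given as a description, without p-values.

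The sh-JMJD1B group comprised 3 replicate arrays of K562 cells with a stable short hairpin RNA (shRNA) against JMJD1B, a histone H3 lysine demethylase whose current symbol is KDM3B, and the sh-CTL group 2 replicate arrays of cells with a control shRNA. Both groups carried the doxycycline-inducible Tet-on system, grew in medium with serum and antibiotics, and received 1 µg/ml doxycycline for 48 h. Whether replicates were separate cultures, and how many shRNAs, clones or pools stand behind each group, is not stated in the labels, so p-values measure only the spread between these arrays, and an effect of the knockdown cannot be told apart from other differences between the 2 stable lines. The level of JMJD1B itself was not analysed here.

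In human genetics, NIPA1, NIPA2, CYFIP1 and TUBGCP5 form the block between the first and the second breakpoint of proximal 15q, which is deleted or duplicated as a unit in some people and is not imprinted, unlike the Prader-Willi and Angelman genes that follow it. MTMR10 lies further along the arm, beyond HERC2. NIPA1 and NIPA2 are related membrane proteins that carry magnesium, and mutations of NIPA1 cause a hereditary spastic paraplegia. CYFIP1 is a subunit of the WAVE complex, which drives branched actin growth downstream of RAC, and it also joins FMRP in repressing cap-dependent translation. TUBGCP5 is a subunit of the gamma-tubulin ring complex, which nucleates microtubules, and MTMR10 belongs to the myotubularins, phosphoinositide phosphatases of which it is a member without catalytic residues.

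The sequences upstream of the annotated starts are shown so that the 4 genes with a lower probe (below) can be set beside TUBGCP5. They are the 250 bases before the start in RefSeq's GRCh38.p14 tables, 5′ to 3′ on the strand of each gene. Capitals mark GGGCGG or its reverse complement, the core letters of the GC box.
NIPA1 (chr15:22786394-22786643, plus strand): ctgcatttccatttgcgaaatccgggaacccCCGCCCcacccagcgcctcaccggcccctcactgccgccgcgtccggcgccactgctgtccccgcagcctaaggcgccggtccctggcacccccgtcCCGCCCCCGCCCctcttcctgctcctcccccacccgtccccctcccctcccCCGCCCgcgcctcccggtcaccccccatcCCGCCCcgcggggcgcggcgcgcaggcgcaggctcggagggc
NIPA2 (chr15:22838416-22838665, plus strand): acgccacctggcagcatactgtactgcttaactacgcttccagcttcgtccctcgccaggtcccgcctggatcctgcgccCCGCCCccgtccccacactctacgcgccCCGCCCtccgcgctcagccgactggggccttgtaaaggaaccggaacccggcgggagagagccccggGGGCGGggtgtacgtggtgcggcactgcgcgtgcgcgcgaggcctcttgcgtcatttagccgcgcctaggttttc
CYFIP1 (chr15:22980899-22981148, minus strand): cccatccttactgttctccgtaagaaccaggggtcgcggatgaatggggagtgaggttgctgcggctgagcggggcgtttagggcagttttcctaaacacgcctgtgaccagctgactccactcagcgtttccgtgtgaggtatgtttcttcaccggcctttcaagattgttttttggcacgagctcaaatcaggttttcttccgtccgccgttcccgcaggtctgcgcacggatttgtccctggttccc
TUBGCP5 (chr15:23039570-23039819, minus strand): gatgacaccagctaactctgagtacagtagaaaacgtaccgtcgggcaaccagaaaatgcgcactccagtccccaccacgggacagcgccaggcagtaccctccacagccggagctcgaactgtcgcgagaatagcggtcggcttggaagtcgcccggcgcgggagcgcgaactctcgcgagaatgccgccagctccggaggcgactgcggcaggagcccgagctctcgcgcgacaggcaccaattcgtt
MTMR10 (chr15:30991629-30991878, minus strand): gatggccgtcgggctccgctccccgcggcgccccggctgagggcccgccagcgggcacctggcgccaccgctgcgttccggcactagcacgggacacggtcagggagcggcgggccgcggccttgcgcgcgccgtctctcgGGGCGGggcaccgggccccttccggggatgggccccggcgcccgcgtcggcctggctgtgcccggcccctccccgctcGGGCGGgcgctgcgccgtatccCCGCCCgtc
CYFIP1 has 4 annotated starts in that table, and the outermost is shown. The GC box letters occurred 5 times before NIPA1, 3 times before NIPA2 and 3 times before MTMR10, but 0 times before CYFIP1 and 0 times before TUBGCP5. Of 27305 genes with such a sequence, counted on both strands, 42.3% held at least 1 match, 14.0% at least 3 and 4.2% at least 5. The CCAAT letters were present once before TUBGCP5 and in none of the other 4, against 33.0% of all genes. None of the 5 held the TATA box letters TATAA, which were found in 19.6% of all genes. Nor did any hold the GATA factor letters (GATAA, in 21.0% of genes) or the E-box letters (CACGTG, in 6.5% of genes). The share of G and C was 78.4% before NIPA1, 68.8% before NIPA2, 55.6% before CYFIP1, 63.6% before TUBGCP5 and 82.4% before MTMR10, against a median of 58.0%. In the windows shown, the 4 genes with a lower probe thus did not have these letters in common. The other annotated starts of CYFIP1 were not counted, and a match is only a description of the window.

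The brightest probes of NIPA1, NIPA2, CYFIP1 and MTMR10 read 1.19-fold to 1.24-fold lower in sh-JMJD1B cells than in sh-CTL cells, while the probe of TUBGCP5 was within 1.06-fold. In RNA from whole cultures, fewer expressing cells and less RNA per cell cannot be told apart. Levels below are log2(signal + 16) after quantile normalization, and signals are the bead intensities as deposited. In the fit over all probes, 4 of the 8 probes were called lower in sh-JMJD1B cells (adjusted p under 0.05) and 0 were called higher, where 2.72% of all 19105 probes were lower and 2.35% higher. Since the genes were chosen on this comparison, nothing is read from that count. All sh-JMJD1B arrays lay below all sh-CTL arrays for 5 of the 8 probes and above them for 1, and over all probes the shares were 20.2% and 17.6%.

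For the magnesium transporter NIPA1, probe ILMN_1689274 had signals of 1415, 1213 and 1374 in sh-JMJD1B replicates 1 to 3, against 1507 and 1589 in sh-CTL replicates 1 and 2. Its normalized levels were 10.39, 10.28 and 10.47 in sh-JMJD1B cells and 10.64 and 10.67 in sh-CTL cells. The groups did not overlap on either scale, and the gap between them (0.17) was slightly smaller than the range within the knockdown (0.19). The difference was -0.28 ± 0.07 (standard error, n = 3 and 2), or 82.5% of the control level. No second NIPA1 probe was among those with sample names.

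For its relative NIPA2, probe ILMN_1720344 had signals of 1862, 1773 and 1664 in sh-JMJD1B cells, against 1964 and 2037 in sh-CTL cells. Normalized levels were 10.77, 10.82 and 10.73 in the knockdown and 11.02 on both control arrays. The difference was -0.25 ± 0.06, or 84.2% of control, and the gap between the groups (0.20) exceeded the range within the knockdown (0.08). The other NIPA2 probe, ILMN_1685742, went the opposite way. It was dim, with signals of 188, 181 and 188 in sh-JMJD1B cells and 167 and 158 in sh-CTL cells, close to the pooled background of 124.0 (the median signal of probes detected on no array). Its difference was 0.09 ± 0.06, and with the pooled background subtracted it was 0.33 ± 0.12, further from the brighter probe. At that signal most of the reading is background, and the 2 probes give no common value for NIPA2.

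For the actin regulator CYFIP1, probe ILMN_2355462 had signals of 1690, 1460 and 1618 in sh-JMJD1B cells, against 1844 and 1898 in sh-CTL cells. Normalized levels were 10.63, 10.54 and 10.69 in the knockdown and 10.93 and 10.92 in the control, so the gap of 0.23 was larger than the range within either group (0.15 and 0.01). The difference was -0.31 ± 0.06, or 80.9% of control. The second CYFIP1 probe, ILMN_2355463, read 8.76, 8.69 and 8.83 in sh-JMJD1B cells and 9.02 and 8.73 in sh-CTL cells, and the groups overlapped. Its difference of -0.12 ± 0.09 rested on 1 control array, since it was 0.03 without sh-CTL replicate 1 and -0.26 without sh-CTL replicate 2. In the RefSeq gene table NIPA2 and CYFIP1 overlap at their ends. The array's probe sequences were not used here, so it is not known whether a probe lies in that overlap.

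TUBGCP5, the gamma-tubulin ring subunit that follows CYFIP1, had signals of 377, 376 and 355 in sh-JMJD1B cells and 379 and 372 in sh-CTL cells on its only probe, ILMN_1803045. The deposited signals overlapped. After normalization the levels were 8.54, 8.62 and 8.55 in the knockdown and 8.67 and 8.63 in the control, which is a gap of only 0.02. The difference was -0.08 ± 0.06, at 94.4% of control, and it was not called.

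MTMR10, the inactive myotubularin, had signals of 2265, 2171 and 2050 in sh-JMJD1B cells, against 2462 and 2652 in sh-CTL cells, on probe ILMN_1778734. Normalized levels were 11.05, 11.09 and 11.03 in the knockdown and 11.34 and 11.41 in the control. The difference of -0.32 ± 0.06, or 80.3% of control, was the most negative of the 8 probes, and its gap of 0.25 was more than the range within either group (0.07 in each). The other MTMR10 probe, ILMN_3251728, did not share it. It read 10.10, 9.95 and 10.05 in sh-JMJD1B cells and 9.99 and 10.06 in sh-CTL cells, with overlapping groups and a difference of 0.01 ± 0.07.

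**Figure D1:**
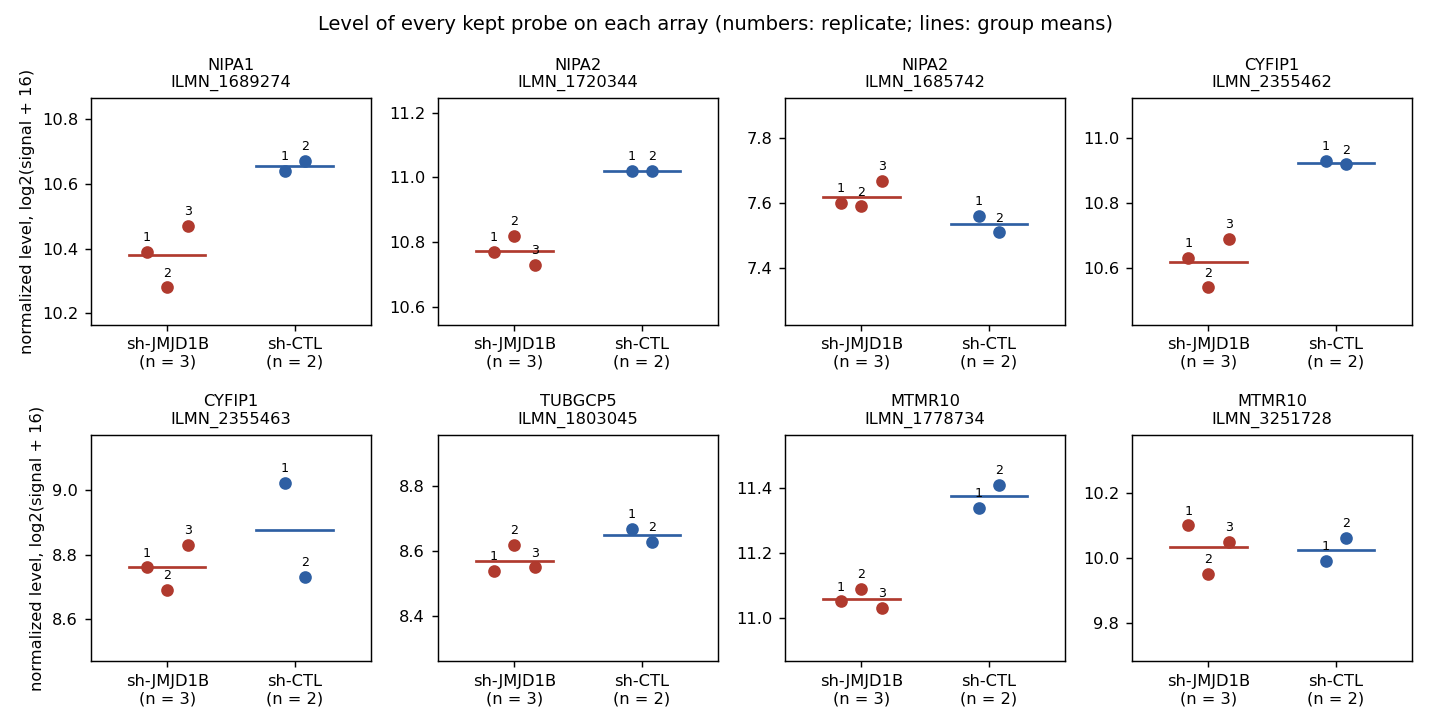
Normalized level, log2(signal + 16), of each of the 8 probes on every array, with sh-JMJD1B (red, n = 3) left of sh-CTL (blue, n = 2), lines at the group means, replicate numbers beside the points and the same height of axis in every panel. The groups are apart for NIPA1, for MTMR10 on ILMN_1778734 and for the brighter probes of NIPA2 and CYFIP1, and overlap for the second probes of CYFIP1 and MTMR10.

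Each of the 3 genes with 2 kept probes therefore had a lower brighter probe and a second probe that was not called. Among all genes a next probe that was not called was common. Of 2841 genes with 2 or more kept probes, 96 had a brightest probe called lower, and 19 of these had a next probe called lower as well. The next probe was below 0 for 83 of the 96. The 96 include NIPA2, CYFIP1 and MTMR10, whose second probes were at 0.09, -0.12 and 0.01. That of NIPA2 is mostly background. Since these 3 genes were chosen on this comparison, no contrast with the other genes is read from them.

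Within the knockdown the normalized levels of the genes did not vary together. NIPA1 and CYFIP1, on both CYFIP1 probes, were lowest on sh-JMJD1B replicate 2 and highest on replicate 3. The brighter NIPA2 probe and MTMR10 on ILMN_1778734 were highest on replicate 2 and lowest on replicate 3. These replicate differences, of 0.07 to 0.19, were smaller than the differences between the groups on those 4 brighter probes. In the deposited signals those 4 probes were all highest on replicate 1, and each was lowest on the same replicate as after normalization.

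The calls were close to the threshold. With 1 of the 5 arrays left out, the differences of the 4 lower probes stayed between -0.23 and -0.35. The adjusted p remained under 0.05 in 0 of 5 such fits for NIPA1, NIPA2 and MTMR10, and in 1 of 5 for CYFIP1. All 4 calls were also lost without normalization, with the pooled background subtracted and with the replicate number as a block. Those of NIPA1 and NIPA2 were lost under median scaling and array weights as well. Because sh-JMJD1B replicate 3 has no control of its number, the block takes no part of the group difference from that array. The block's differences for these 4 probes equal those without sh-JMJD1B replicate 3. In all, the call held under 5 of 15 alternatives for NIPA1, 5 for NIPA2, 8 for CYFIP1 and 7 for MTMR10. The sign held under all 15 alternatives, with extremes of -0.22 and -0.32 for NIPA1, -0.18 and -0.27 for NIPA2, -0.24 and -0.34 for CYFIP1, and -0.24 and -0.35 for MTMR10.

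**Figure D2:**
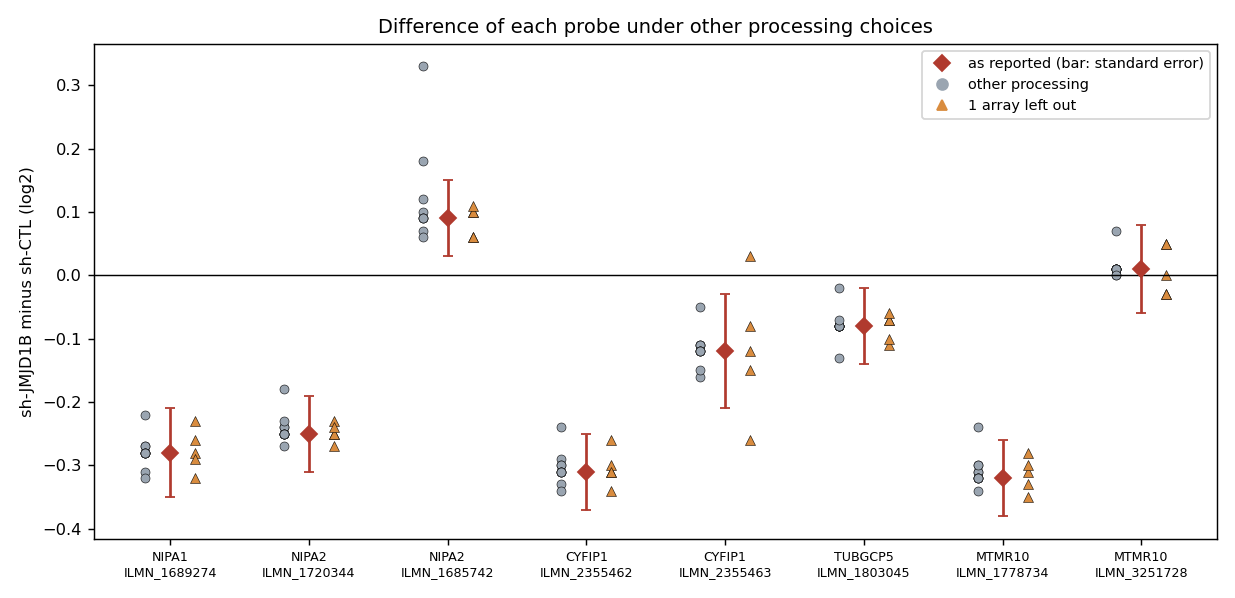
Difference of sh-JMJD1B minus sh-CTL (log2) for each probe as reported (red, with its standard error), under other processing (grey) and with 1 array left out (orange). NIPA1, MTMR10 on ILMN_1778734 and the brighter probes of NIPA2 and CYFIP1 stay at or below -0.18 throughout, whereas the second CYFIP1 probe crosses 0 without sh-CTL replicate 1.

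The other genes of proximal 15q were examined in the order of the RefSeq table. Of a list of 42, 26 were measured, of which 1 was called higher and 1 lower in sh-JMJD1B cells, against 2.56% and 3.70% of the 11041 genes. Their median difference was -0.07, with 17 of 26 negative, against a median of -0.01 over all genes, of which 53.2% were negative. TJP1, a tight junction scaffold on the centromeric side of MTMR10, fell by 0.30 ± 0.07 (limma adjusted p = 0.03). It read 10.53, 10.55 and 10.67 in sh-JMJD1B cells against 10.91 and 10.85 in sh-CTL cells, and its second probe was at -0.18 and not called. ATP10A, a phospholipid flippase, rose by 0.25 ± 0.06 (limma adjusted p = 0.035), with 7.95, 7.93 and 7.94 in sh-JMJD1B cells against 7.70 and 7.68 in sh-CTL cells. Its probe is dim, and with the pooled background subtracted its difference was 0.67 and still called. Without any 1 of the arrays ATP10A was no longer called, and TJP1 was called only without sh-JMJD1B replicate 3. These 2 were the only called genes among the 13 other measured genes that lie between NIPA1 and MTMR10.

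Of the genes of the Prader-Willi and Angelman region, ATP10A lies between UBE3A and HERC2, and the other measured genes from MKRN3 to HERC2 were not called. MKRN3, a ubiquitin ligase and the next measured gene after TUBGCP5, was at 0.02 (limma adjusted p = 0.88), MAGEL2 at 0.12 and NDN at -0.04. SNRPN and SNURF, which share a transcript, were at -0.22 and -0.14 (limma adjusted p = 0.061 and 0.21). The probes of NDN, SNRPN and SNURF were dim, with control levels of 7.70, 8.01 and 7.66, and SNURF was detected on 4 arrays. Background is a large part of such readings, so any real difference would be understated, and whether there is one is not known. UBE3A, the Angelman ubiquitin ligase, was at -0.19 and HERC2, a ubiquitin ligase gene at the far end of the region, at -0.21 (limma adjusted p = 0.12 for each). The nearest measured genes on either side of MTMR10 were not called, the nuclease gene FAN1 at -0.17 and the transcription factor gene KLF13 at -0.07 (limma adjusted p = 0.22 and 0.53). The lower readings of NIPA1, NIPA2, CYFIP1 and MTMR10 thus stood among genes on both sides of 0. Of the 26 other measured genes of the list, 17 were negative and 9 positive.

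**Figure D3:**
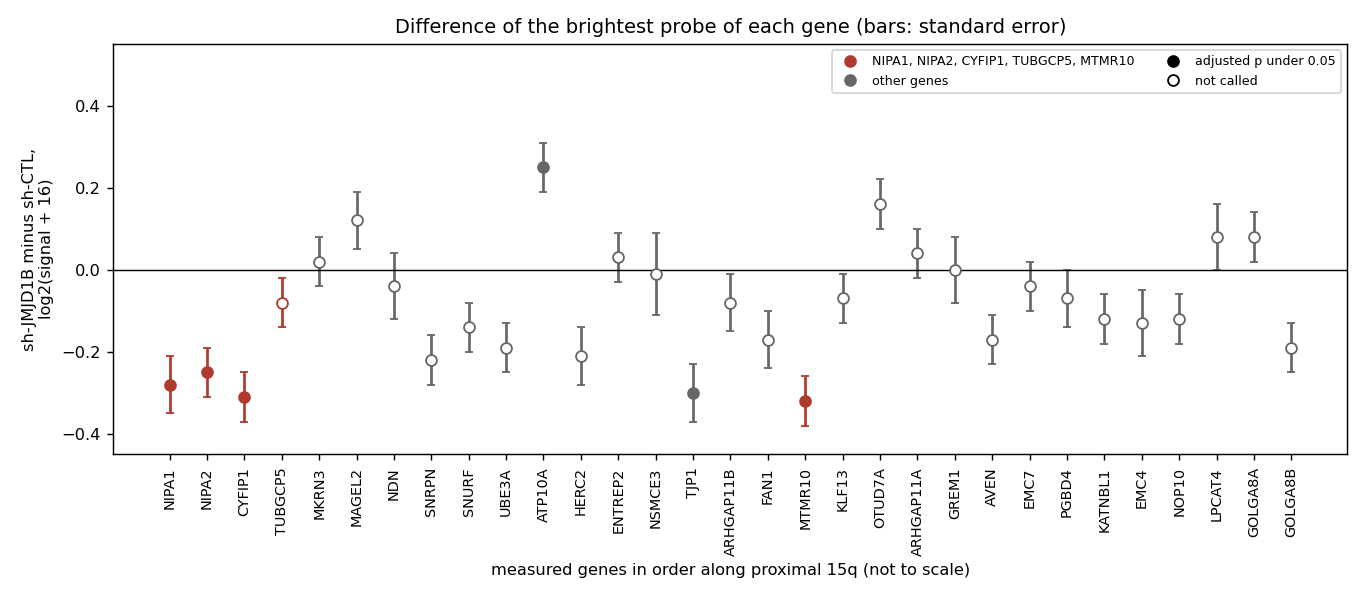
Difference of sh-JMJD1B minus sh-CTL (log2, with standard error) for the brightest probe of each measured gene in order along proximal 15q, filled where the adjusted p was under 0.05. NIPA1, NIPA2, CYFIP1 and MTMR10 lie between -0.25 and -0.32, TUBGCP5 at -0.08, and the other genes between -0.30 (TJP1) and 0.25 (ATP10A).

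Chromosome 15 as a whole also read lower in the knockdown, relative to the other chromosomes. With the 5 genes left out, 343 genes of chromosome 15 were measured, with a median of -0.07; 253 of them (73.8%) were negative, 27 were called lower (7.87%) and 2 higher (0.583%). On the other 22 chromosomes analysed, the share of negative genes ran from 42.8% on chromosome 14 to 62.2% on chromosome 20, and the medians from -0.03 to 0.01. Divided into 10 stretches of 30 to 35 measured genes, chromosome 15 had a negative median in each, between -0.11 and -0.04, and the stretch that holds the proximal genes had -0.04. Genes of 1 chromosome are not independent replicates, the comparison of chromosomes was chosen after seeing the data, and it was not tested. Leaving out a single array brought the 27 calls down to between 4 and 10. The median of chromosome 15 minus that of the other genes stayed between -0.09 and -0.05 under all 15 alternatives. Without normalization the chromosome's own median was 0.00, against 0.07 for the other genes, so the shift is a relative one. After normalization, TUBGCP5 at -0.08 was close to the chromosome's median of -0.07, and the 4 lower probes were at -0.25 to -0.32.

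**Figure D4:**
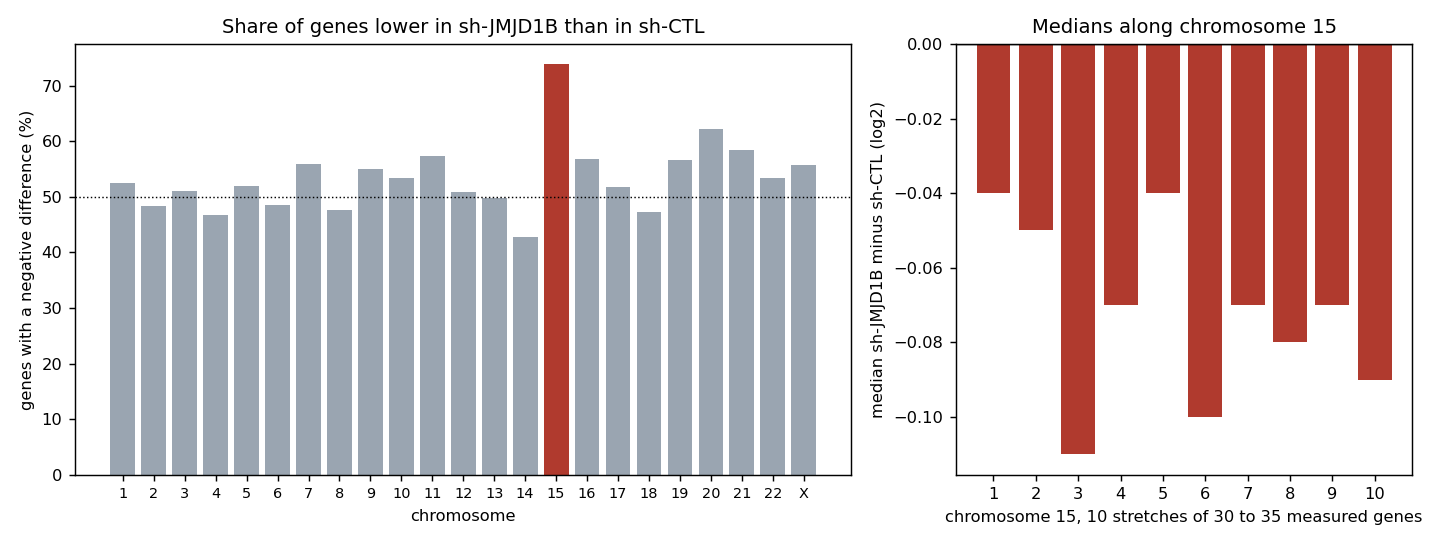
Left, the percentage of measured genes with a negative difference on each chromosome (dotted line at 50%), with chromosome 15 in red at 73.8%. Right, the median difference of sh-JMJD1B minus sh-CTL (log2) in 10 consecutive stretches of chromosome 15, without NIPA1, NIPA2, CYFIP1, TUBGCP5 and MTMR10, all negative.

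Partners of the 5 proteins were next compared in the same fit, against the background of 2.56% of genes higher and 3.70% lower and a median of -0.01. An unadjusted p under 0.05 was reached by 24.0% of the 11041 genes (2647), and counts at that level are read against this share. Of 12 measured genes of magnesium transport, 0 were called in limma (5 at an unadjusted p under 0.05) and the median was -0.09. The smallest p-values were those of CNNM3, at -0.22, and the exporter SLC41A1, at -0.23 (limma adjusted p = 0.077 and 0.089). SLC41A1 was at -0.35 with the pooled background subtracted. A second CNNM3 probe was at -0.28 and was called (limma adjusted p = 0.037).

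NIPA1 is known to restrain signalling through BMP receptors. Of 14 BMP receptor and SMAD pathway genes, 1 rose, with a median of -0.08, and the 1 other called gene, ACVRL1, is described below without a test. ID2, a target gene of the pathway, rose by 0.49 ± 0.06 (limma adjusted p = 0.0015), with 12.67, 12.68 and 12.70 in sh-JMJD1B cells against 12.16 and 12.23 in sh-CTL cells, and its second probe was at 0.46. The receptor gene ACVRL1 was detected on both sh-CTL arrays and on none of the sh-JMJD1B arrays. It thus passed the filter only through the control arrays, so its call is not counted and no p-value is given. It read 7.31, 7.43 and 7.37 in sh-JMJD1B cells against 7.80 and 7.58 in sh-CTL cells. Set against the lowest detected signal of each knockdown array, the control mean was 1.14-fold higher. That value ignores the spread between the 2 control arrays, so no minimum fall is read from it. The difference was -0.21 without sh-CTL replicate 1 and -0.43 without sh-CTL replicate 2. Of 21 genes of hereditary spastic paraplegias, 2 fell and 0 rose, with a median of -0.02. They were the kinesin KIF1A, by 0.28 ± 0.06, and ZFYVE27, which shapes the endoplasmic reticulum, by 0.26 ± 0.06 (limma adjusted p = 0.027 and 0.036). Neither was called without any 1 of the arrays, and ZFYVE27 was at -0.50 and not called with the pooled background subtracted.

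Of 9 genes of the WAVE complex and RAC, 1 rose and 0 fell, with a median of 0.09. NCKAP1L, the blood cell form of the subunit that pairs with CYFIP proteins, rose by 0.55 ± 0.06 (limma adjusted p = 0.00051). It read 10.39, 10.38 and 10.41 in sh-JMJD1B cells against 9.85 and 9.82 in sh-CTL cells, and was called under all 15 alternatives. For CYFIP1, its partner in the complex, the brighter probe was at -0.31 in the same cells and was called under 8 of 15 alternatives. The second CYFIP1 probe was at -0.12, with overlapping groups, and was not called. A link between the 2 genes was not tested. Of 8 genes of FMRP and cap binding, 0 were called in limma (0 at an unadjusted p under 0.05), with a median of -0.03. FXR2 was at 0.13 and EIF4G2 at -0.11 (limma adjusted p = 0.28 and 0.36), and EIF4G2 did not keep its sign on its next probe or without normalization.

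Of 16 genes of the gamma-tubulin ring complex and its recruiters, 0 were called in limma (4 at an unadjusted p under 0.05), with a median of -0.02. MZT1, a small subunit of the complex, was at 0.22 and NEDD1, which brings it to the spindle, at -0.18 (limma adjusted p = 0.12 for each). MZT1 was at 0.33 without sh-CTL replicate 1 and at 0.11 without sh-CTL replicate 2, and its next probe was at 0.07, while the next NEDD1 probe was at 0.00. Of 11 myotubularins, 0 were called in limma (6 at an unadjusted p under 0.05), with a median of 0.00. MTMR9 was at -0.23 and SBF1 at -0.17 (limma adjusted p = 0.073 and 0.14), and MTMR9 was at -0.36 with the pooled background subtracted.

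The genes whose profile was nearest to that of NIPA1, NIPA2 and CYFIP1 were ranked by Euclidean distance over the 5 arrays. Each gene's levels were centred on their own mean, and the brightest probes of NIPA1, NIPA2 and CYFIP1 were averaged to -0.11, -0.16 and -0.07 in sh-JMJD1B cells and 0.16 and 0.17 in sh-CTL cells. ASGR1, a subunit of the asialoglycoprotein receptor, was nearest at 0.026, followed by KIF1A at 0.028, FAM43A at 0.036, RHPN2 at 0.038 and KIFBP, a kinesin-binding protein, at 0.041. The distance of CYFIP1 to that mean was 0.058, of NIPA1 0.075, of MTMR10 0.124, of NIPA2 0.125 and of TUBGCP5 0.245, against a median of 0.329 over all genes. The 5 named genes lay nearer to the mean profile than the 3 that made it. They were picked as the nearest of all other measured genes, so nothing about those 3 is read from this. With 2 groups of arrays, such a distance mostly reads the size of the group difference.

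The arrays as a whole were alike. Their median signals ran from 455.6 to 498.6, and the spread between any 2 arrays across probes was 0.12 to 0.18 (SD, log2). Of 11 erythroid markers of K562, 10 were measured, all on 5 of 5 arrays, including GATA1, TAL1 and the fetal globins. Of 7 lymphocyte, 5 monocyte and 9 epithelial, fibroblast or endothelial markers, 2, 3 and 5 were measured, among them CD79A, CD14 and EPCAM. Of these 20 measured markers 2 were called, against 6.27% of all genes, both lower in sh-JMJD1B cells. HBZ, the embryonic zeta globin of the erythroid list, was at -0.56 and EPCAM, an epithelial adhesion molecule of the mixed list, at -0.51 (limma adjusted p = 0.0015 and 0.0042). The part of other cells in the results was not tested.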

How the data were processed

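Signals of 5 K562 arrays (3 sh-JMJD1B, 2 sh-CTL) were analysed. The values deposited under sample names are linear bead intensity; the submitters' processing notes name GenomeStudio 2009.2, with settings not given in the sources used here. A larger deposited table holds the same intensity values for 47321 probes with a detection p-value each, per the file headers; its 5 signal columns match no sample name and served as a key and for a pooled background. Each of the 19144 labelled rows equals 1 probe there in its 5 signals, but only 47 are printed beside that probe's ID, so rows were named by the matching signals, and gene symbols came from the platform annotation, updated through a RefSeq gene table (GRCh38.p14).

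Signals plus 16 were put on a log2 scale, quantile normalized and filtered (detection p under 0.05 on at least 2 arrays) to 19105 probes. Group was the only term in limma 3.58.1 (lmFit, eBayes; R 4.3.3), with 3 residual degrees of freedom and 10.1 including the prior; adjusted p-values are Benjamini-Hochberg over all probes, threshold 0.05. The median standard error was 0.07. Background stays in the values, so any real fold of a dim probe is understated. A gene was represented by its kept probe with the highest mean. Alternatives covered normalization, pseudocount, background, filter, weights, moderation, replicate block and each array left out. Of each gene list, up to 4 called members by p were named, or else the 2 with the smallest p; the nearest profiles were the 5 with the smallest distance. The genes, lists and tests were chosen with earlier results of these data known.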

Additional observations from a re-analysis of the deposited data

How the results depend on the processing

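The numbers of probes higher and lower in the knockdown (449 and 519, or 46.4% higher) stayed within 1.5 times under median scaling, cyclic loess, a pseudocount of 50, weighted arrays, a trended and robust prior, and with the filter dropped or made stricter. They were 791 and 153 without normalization (83.8% higher, with the median of all probes at 0.07), 90 and 46 with the pooled background subtracted, and 194 and 145 with the replicate number as a block. With 1 array left out they ran from 175 to 240 and from 126 to 218. The other chromosome 15 genes called lower (27) were 4 without normalization, 2 with the background subtracted, 4 with the replicate block, and 4 to 10 with 1 array left out. The cause of these changes was not tested, and the fits of the last case also had fewer arrays. Same-numbered arrays did not deviate together (Pearson's r across probes -0.22 for number 1 and -0.09 for number 2), so the numbers are not taken as pairs. Under the block the brightest probes of NIPA1, NIPA2, CYFIP1 and MTMR10 were at -0.32, -0.23, -0.34 and -0.30 and were not called. These equal the differences without sh-JMJD1B replicate 3, which has no control of its number.

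Of 119 values of the 8 probes under these choices, 110 moved by less than the SD between replicates and 9 by more, and of the 4 called probes none changed sign. EIF4G2 reached 0.00 without normalization and 0.02 on its next probe, and NEDD1 was at 0.00 on its next probe. The IDs printed beside the labelled values, an alternative added after seeing the data, give NIPA1, the brighter NIPA2 probe and MTMR10 (ILMN_1778734) the values of other probes at -0.28, -0.24 and -0.32. Those rows mostly follow the order of fold changes, so the nearness is no support.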
